A study of Mus musculus with 6 samples.

Results

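The 48 mouse genes described here encode the machinery of mitosis and cytokinesis. They are cyclin B, Cdk1 and the other kinases and phosphatases of mitotic entry, the spindle checkpoint and the separase pathway, the chromosomal passenger complex, outer kinetochore proteins, spindle motors and microtubule proteins, condensin and other proteins of mitotic chromosomes, and the proteins that build the cleavage furrow. They were taken by symbol from a table of RSEM expected counts that holds 41214 genes. Each of the 48 had a row, and each passed the filter on low counts that left 10952 genes to test. The libraries come from endothelial cells of embryonic mouse hearts, sorted as CD31+GFP+ cells, and the series compares cells with absent, reduced and normal Dll4, the gene of a Notch ligand. In the KO group (labelled Dll4-/-, replicates 1 and 2), mice with Dll4flox/flox and Pdgfb-iCre-ERT2-EGFP had been crossed to Dll4 flox/flox females. In the het group (Dll4+/-, replicates 2 and 3), such mice had been crossed to wildtype females. In the wt group (WT, replicates 4 and 5), mice with Pdgfb-iCreERT2-IRES-EGFP had been crossed to wildtype females, so that cells of all 3 groups were sorted for GFP from a Pdgfb-driven Cre transgene. Tamoxifen, which activates this Cre, was given to all 3 groups at E13.5 (days of embryonic development), and hearts were taken at E14.5. The Pdgfb sequences drive Cre in endothelial cells, and the GFP gate selects cells that carry the transgene, not cells in which Dll4 was recombined. Litters of independent females were used, but the labels do not say which animals went into a library, so the p-values below measure the spread between 2 libraries a group, which may be in part technical.

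A cell enters mitosis when Cdk1, bound to cyclin B and freed of inhibitory phosphates by Cdc25 phosphatases, becomes active. Chromosomes are then compacted by condensin, captured at their kinetochores by spindle microtubules, held by the spindle checkpoint until every kinetochore is attached, and separated when the anaphase-promoting complex with Cdc20 releases separase. The centralspindlin complex and its partners position the cleavage furrow that divides the cell. Transcripts of this machinery are scarce in resting cells and accumulate late in the cell cycle, and many of their promoters carry CCAAT boxes, bound by NF-Y, and cell cycle homology region (CHR) elements, bound by the MuvB complexes. In vessels, Dll4 on tip and arterial cells activates Notch in neighbouring endothelial cells, and Notch activity is known to restrain proliferation in several vascular beds.

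Library totals were 6501798 and 4988014 counts in KO, 1537908 and 3165552 in het, and 2521534 and 1732136 in wt, so values are most precise in KO. Levels are given as CPM, counts scaled to a common total after TMM correction of the library totals. Dll4 followed the labels, with 19.4 and 13.7 CPM in the KO libraries, 81.2 and 85.9 CPM in the het libraries, and 196 and 183 CPM in the wt libraries. Pecam1 (CD31), the endothelial marker used in the sort, was at 844 and 892 CPM in the KO libraries. It was at 716 and 752 CPM in the het libraries and 834 and 818 CPM in the wt libraries. Summed over 10 endothelial markers, the level was 5306 and 5127 CPM in the KO libraries. The sums were 5906 and 6215 CPM in the het libraries and 6609 and 6235 CPM in the wt libraries, so both KO sums were the lowest. Of 10 endothelial markers 2 were higher and 4 lower in KO than in wt. Over all genes tested, 14.7% were called higher and 17.3% lower. Among these markers were the adherens junction gene Cdh5 at a log2 fold change of -2.29 and the angiopoietin receptor gene Tek at 0.77. The KO libraries also differed in makeup. Lars2, which holds sequence like that of ribosomal RNA, took 0.0572% and 0.0611% of counts in KO, 17.1% and 16.4% in het, and 16.4% and 16.7% in wt. Mitochondrial ribosomal RNA took 0.108% and 0.0954% of counts in KO, 1.84% and 3.22% in het, and 1.33% and 2.26% in wt. The 7SL genes took 0.00125% and 0.00235% in KO, 0.234% and 0.129% in het, and 0.189% and 0.188% in wt. No preparation date or batch is given in the labels, so the genotype cannot be told apart from a batch that both KO libraries might share.

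In KO endothelial cells the mitosis and cytokinesis genes were mostly higher than in wt, unevenly by role. Of the 48, 30 rose, 1 fell (Smc4, a condensin subunit) and 17 did not pass the test in KO against wt (edgeR quasi-likelihood test, Benjamini-Hochberg adjusted p under 0.05 over all genes tested). Over all genes tested, 14.7% were called higher and 17.3% lower. The median log2 fold change of the 48 was 0.64, against -0.02 over all genes tested. At least 2-fold rises were called for 12 members, against 313 of all 10952 genes tested. Every cytokinesis gene rose, and most checkpoint and spindle genes did, whereas Cdk1, cyclin A2, most kinetochore genes, Top2a and Mki67 did not pass. For 39 members (81.2%) both KO libraries lay above both wt libraries, against 33.2% of all genes. For Smc4 alone (2.08%) both lay below, against 34.5% of all genes. Summed over the 48, the level was 6913 and 6449 CPM in the KO libraries, 5172 and 5672 CPM in the het libraries, and 5064 and 4637 CPM in the wt libraries. Both KO sums lay above the other 4. In bulk RNA, more cells in mitosis and more of these transcripts per cell cannot be told apart.

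**Figure D1:**
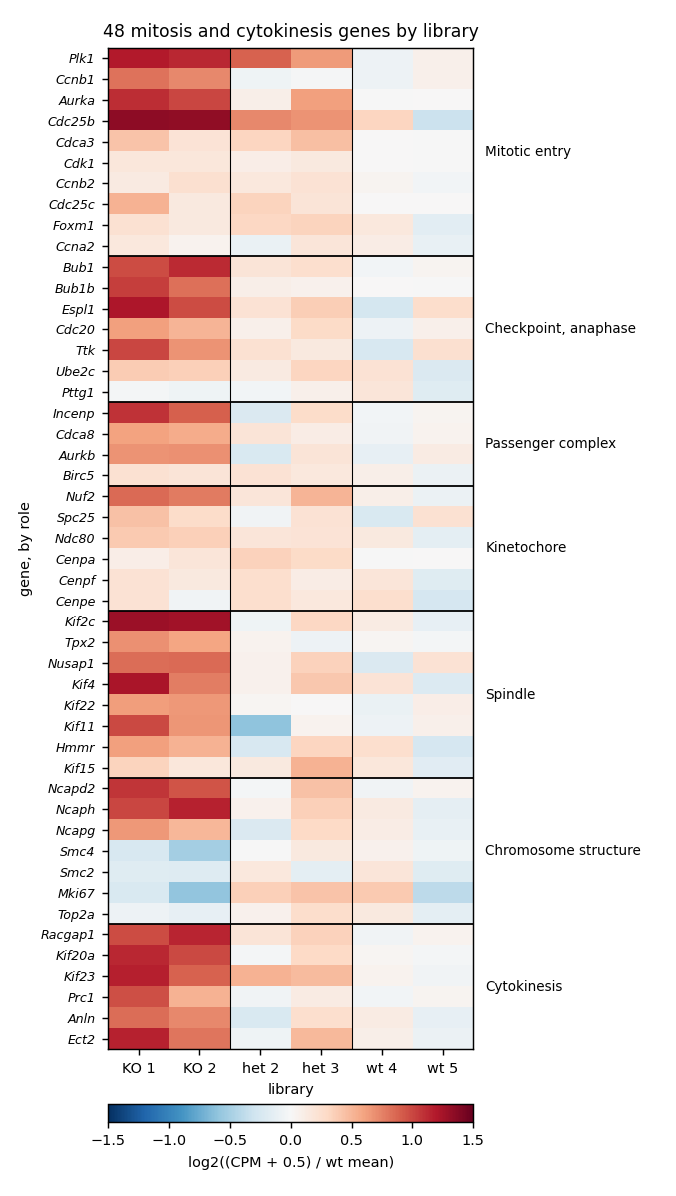
Level of each of the 48 genes (rows, by role) in each library (columns), as log2 of CPM plus 0.5 relative to the mean of the wt libraries. Red cells fill both KO columns for the cytokinesis genes, most spindle and most checkpoint genes, while Cdk1, Ccna2 and most kinetochore genes are pale and Smc4 and Mki67 are blue in KO.

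The promoters of 5 members are shown because genes of this class are known to be controlled through CCAAT boxes and CHR elements. They belong to the member of each role with the smallest p in KO against wt, where the RefSeq promoter table (GRCm38.p6) holds it and a search found such a word in it; no window is shown for the passenger complex or the kinetochore. Each stretch runs from 250 bases before to 30 bases after the annotated start, 5′ to 3′ on the gene's strand. They are Plk1 at chr7:122159185-122159464 (plus strand), Racgap1 at chr15:99651627-99651906 (minus strand), Kif2c at chr4:117178743-117179022 (minus strand), Bub1 at chr2:127831830-127832109 (minus strand) and Ncapd2 at chr6:125191557-125191836 (minus strand). Capitals mark CCAAT and its reverse complement ATTGG, and TTTGAA with its reverse complement TTCAAA or the palindrome TTTAAA.
Plk1: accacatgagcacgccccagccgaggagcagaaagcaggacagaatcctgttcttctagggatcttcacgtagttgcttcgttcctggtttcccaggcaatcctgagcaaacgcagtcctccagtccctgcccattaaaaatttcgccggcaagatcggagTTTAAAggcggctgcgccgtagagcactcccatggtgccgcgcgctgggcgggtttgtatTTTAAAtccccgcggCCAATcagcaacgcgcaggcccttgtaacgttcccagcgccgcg
Racgap1: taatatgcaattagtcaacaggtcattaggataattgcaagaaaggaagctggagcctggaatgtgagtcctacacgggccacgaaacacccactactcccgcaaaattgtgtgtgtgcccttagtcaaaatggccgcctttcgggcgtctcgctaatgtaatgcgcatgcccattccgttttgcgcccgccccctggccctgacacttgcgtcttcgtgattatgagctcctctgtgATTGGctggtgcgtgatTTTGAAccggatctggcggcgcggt
Kif2c: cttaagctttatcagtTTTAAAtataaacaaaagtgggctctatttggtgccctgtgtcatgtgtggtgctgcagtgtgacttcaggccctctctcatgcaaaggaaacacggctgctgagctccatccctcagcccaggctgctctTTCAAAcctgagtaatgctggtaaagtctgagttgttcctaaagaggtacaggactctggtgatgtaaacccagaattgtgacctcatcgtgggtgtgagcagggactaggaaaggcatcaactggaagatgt
Bub1: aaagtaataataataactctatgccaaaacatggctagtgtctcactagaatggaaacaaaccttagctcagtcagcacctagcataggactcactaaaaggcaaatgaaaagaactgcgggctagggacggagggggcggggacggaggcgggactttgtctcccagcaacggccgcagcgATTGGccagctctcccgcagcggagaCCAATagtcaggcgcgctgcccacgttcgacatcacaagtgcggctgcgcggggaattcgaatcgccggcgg
Ncapd2: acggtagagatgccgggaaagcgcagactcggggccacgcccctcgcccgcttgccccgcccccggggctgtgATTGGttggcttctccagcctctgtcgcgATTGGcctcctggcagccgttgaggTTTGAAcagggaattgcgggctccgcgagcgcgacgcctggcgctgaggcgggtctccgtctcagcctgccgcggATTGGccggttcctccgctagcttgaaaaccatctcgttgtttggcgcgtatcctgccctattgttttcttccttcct
The stretch of Plk1 holds 1 CCAAT box and 2 CHR words, with the box 14 bases before the start, and another CHR word begins 30 bases after the start, past the printed end. Racgap1 has an inverted box 12 bases before the start and a CHR word 5 bases after it. In Bub1 there are 2 boxes of opposite orientation and no CHR word. Ncapd2 has 3 inverted boxes and 1 CHR word. In Kif2c 2 CHR words stand far from the start and no box was found. The start used for Kif2c lies inside the gene as GENCODE draws it (chr4:117159639-117182639, minus strand).

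Among the 10 genes of mitotic entry, 4 rose (40%, against 14.7% of all genes tested) and 6 did not pass the test. Plk1, the polo-like kinase that acts from mitotic entry to cytokinesis (chr7:122159439-122169873, GRCm38), was at 177 and 169 CPM in the KO libraries, 142 and 119.7 CPM in the het libraries, and 73.2 and 81.0 CPM in the wt libraries. The 3 groups did not overlap and were ordered KO, het, wt, and the log2 fold change of KO over wt was 1.17 ± 0.13 (SE; edgeR adjusted p = 8.73e-07). Ccnb1, cyclin B1, the partner of Cdk1 (chr13:100778650-100786570), was at 289.6 and 270.4 CPM in the KO libraries, 157 and 162 CPM in the het libraries, and 156 and 173 CPM in the wt libraries. Both KO libraries lay above all others while het and wt overlapped (0.77 ± 0.11, adjusted p = 1.39e-05). Aurka, Aurora kinase A of the centrosomes and spindle poles (chr2:172356190-172370535), was at 125 and 116 CPM in the KO libraries, 61.3 and 88.6 CPM in the het libraries, and 57.4 and 57.6 CPM in the wt libraries. It was 2.09-fold higher in KO than in wt (1.06 ± 0.16, adjusted p = 3.31e-05). Cdc25b, a phosphatase that activates Cdk1, had the largest estimate among the 48 (1.29 ± 0.25, adjusted p = 0.000445) at a low level, 35.3 and 34.8 CPM in KO against 17.1 and 10.8 CPM in wt.

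Cdk1 itself was at 287 and 287 CPM in the KO libraries, 275 and 284 CPM in the het libraries, and 256 and 256 CPM in the wt libraries, chosen here after its values were seen, as were the other genes below that did not pass. The log2 fold change of KO over wt was 0.17 (95% interval -0.04 to 0.37), an interval that lies below the estimate for Plk1, and it passed with library size alone as the scaling (0.53, adjusted p = 0.000222). Ccna2, cyclin A2, was at 326 and 303 CPM in the KO libraries, 272 and 329 CPM in the het libraries, and 314 and 269 CPM in the wt libraries, and KO and wt overlapped (0.10, 95% interval -0.13 to 0.34). Ccnb2, Cdca3, Cdc25c and Foxm1, a transcription factor of late cell cycle genes, had log2 fold changes between 0.17 and 0.36 and did not pass.

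**Figure D2:**
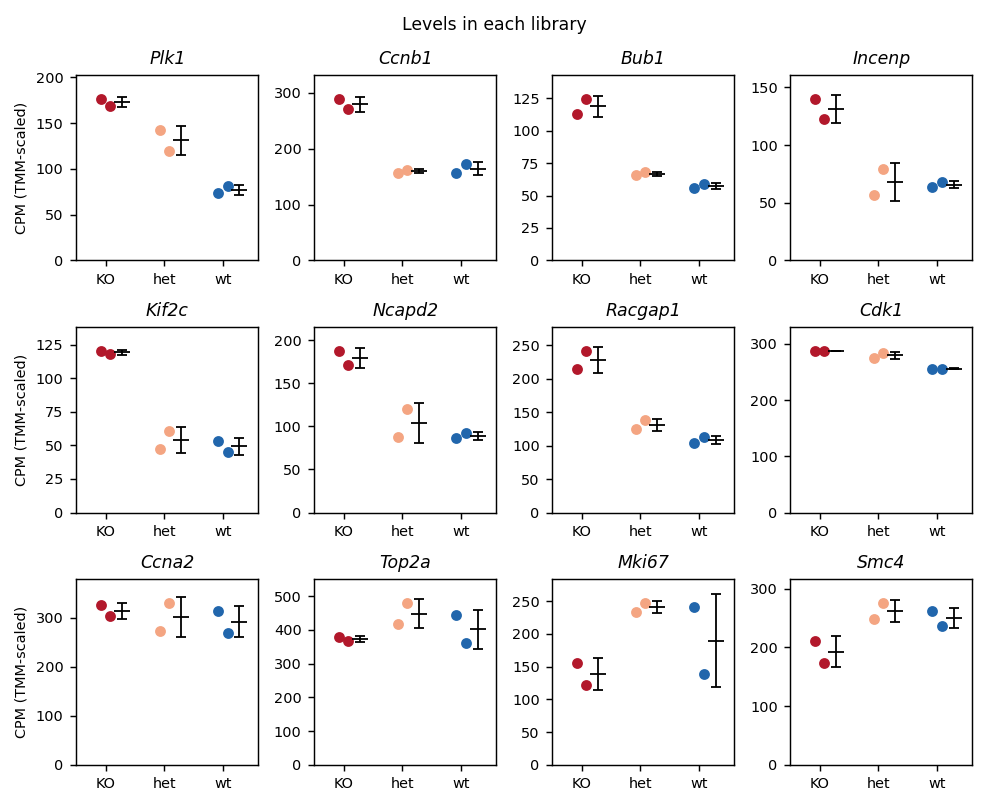
CPM of 12 members in each library (points) by group (KO, het, wt), with the mean and SD of the 2 libraries of a group beside them. Plk1, Bub1 and Racgap1 are ordered KO, het, wt with no overlap between groups, and in Ccnb1, Incenp, Kif2c and Ncapd2 both KO libraries lie above the others while het and wt overlap. Cdk1 has the same order without overlap but differs little between groups, and Ccna2, Top2a and Mki67 overlap between KO and wt.

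In the checkpoint and anaphase group 6 of 7 genes rose (85.7%, against 14.7% of all genes tested). Bub1, a checkpoint kinase that marks the centromere (chr2:127801122-127831865), was at 113 and 125 CPM in the KO libraries, 65.5 and 68.1 CPM in the het libraries, and 55.7 and 58.9 CPM in the wt libraries. Bub1b, which encodes BubR1 of the mitotic checkpoint complex (chr2:118598211-118641591), was at 166 and 143 CPM in the KO libraries, 86.2 and 84.8 CPM in the het libraries, and 81.3 and 80.4 CPM in the wt libraries. In both genes the KO libraries stood apart, and the log2 fold changes of KO over wt were 1.06 ± 0.15 for Bub1 (adjusted p = 1.05e-05) and 0.94 ± 0.13 for Bub1b (adjusted p = 1.61e-05). Espl1, separase, the protease that cuts cohesin at anaphase (chr15:102296266-102324357), was at 75.9 and 64.5 CPM in the KO libraries, 37.8 and 42.2 CPM in the het libraries, and 27.0 and 39.2 CPM in the wt libraries. Its wt libraries differed more from each other than those of Bub1, but both lay below KO (1.12 ± 0.19, adjusted p = 0.000147). The kinase gene Ttk (Mps1) and Cdc20, the activator of the anaphase-promoting complex, rose by 0.87 and 0.57 on the log2 scale. Ube2c, the ubiquitin-conjugating enzyme of that complex, passed narrowly (0.34 ± 0.13, adjusted p = 0.044) and lost its call in 6 of 17 other settings. Among these were the fits without KO replicate 1 (0.34, adjusted p = 0.143), without KO replicate 2 (0.36, adjusted p = 0.12) and without wt replicate 5 (0.15, adjusted p = 0.472). Ttk lost its call without wt replicate 4 (0.66, adjusted p = 0.0937). Pttg1, securin, the inhibitor of separase, did not pass, at 29.5 and 28.8 CPM in KO against 34.3 and 26.6 CPM in wt (95% interval -0.52 to 0.37).

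The chromosomal passenger complex corrects kinetochore attachments and then moves to the midzone. Of its genes 3 of 4 rose (75%, against 14.7% of all genes tested). Incenp, the scaffold (chr19:9872296-9899551), was at 140.1 and 123 CPM in the KO libraries, 56.3 and 79.6 CPM in the het libraries, and 63.8 and 67.7 CPM in the wt libraries. It was 2.01-fold higher in KO than in wt (1.004 ± 0.16, adjusted p = 4.76e-05). Aurkb, the kinase of the complex (chr11:69045647-69051664), was at 132 and 133 CPM in the KO libraries, 70.5 and 94.6 CPM in the het libraries, and 75.8 and 90.5 CPM in the wt libraries. Cdca8, borealin (chr4:124918465-124939311), was at 160.3 and 156 CPM in the KO libraries, 120.4 and 114 CPM in the het libraries, and 102 and 109.5 CPM in the wt libraries. Both KO libraries lay above the other 4 for all 3 genes, and the log2 fold changes were 0.68 ± 0.15 for Aurkb (adjusted p = 0.00122) and 0.59 ± 0.12 for Cdca8 (adjusted p = 0.000867). Birc5, survivin, the fourth subunit, did not pass (0.21 ± 0.11, adjusted p = 0.179).

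At the kinetochore 1 of 6 genes rose (16.7%, near the 14.7% of all genes tested). Nuf2, a subunit of the Ndc80 complex that grips microtubule ends (chr1:169497934-169531464), was at 66.9 and 64.0 CPM in the KO libraries, 42.0 and 53.1 CPM in the het libraries, and 39.4 and 34.8 CPM in the wt libraries. Both KO libraries lay above the others (0.81 ± 0.18, adjusted p = 0.00133). The other subunits of this complex among the 48, Spc25 and Ndc80, did not pass, nor did the remaining subunit gene Spc24, of another list and named after its values were seen (-0.04 ± 0.19, adjusted p = 0.883). Spc25 (chr2:69193895-69206194) was at 80.4 and 71.8 CPM in the KO libraries, 57.0 and 68.8 CPM in the het libraries, and 50.5 and 69.0 CPM in the wt libraries, with a log2 fold change of 0.37 ± 0.17 (adjusted p = 0.104). Ndc80 (chr17:71496100-71526857) was at 62.6 and 61.1 CPM in the KO libraries, 54.1 and 54.8 CPM in the het libraries, and 52.7 and 43.0 CPM in the wt libraries, with a log2 fold change of 0.36 ± 0.17 (adjusted p = 0.107). In both, the KO libraries lay above the wt libraries by less than in Nuf2, and whether Nuf2 differed from them was not tested. Cenpa, the centromeric histone, Cenpe, a kinetochore motor, and Cenpf had log2 fold changes between 0.05 and 0.16 and did not pass.

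Among spindle genes 7 of 8 rose (87.5%, against 14.7% of all genes tested). Kif2c, the microtubule-depolymerising kinesin MCAK (chr4:117159639-117182639), was at 120.3 and 118 CPM in the KO libraries, 47.0 and 60.7 CPM in the het libraries, and 53.5 and 44.9 CPM in the wt libraries. The 2 KO libraries nearly coincided, and the log2 fold change of 1.26 ± 0.16 was the largest of the group (adjusted p = 3.51e-06). Tpx2, which activates Aurora A on spindle microtubules (chr2:152847964-152895321), was at 217 and 203 CPM in the KO libraries, 139.6 and 128 CPM in the het libraries, and 137 and 132 CPM in the wt libraries. Nusap1, a microtubule-bundling protein (chr2:119618298-119651244), was at 104 and 105 CPM in the KO libraries, 60.5 and 74.0 CPM in the het libraries, and 49.7 and 67.7 CPM in the wt libraries. Het and wt overlapped for both, and KO exceeded wt by 0.64 ± 0.11 for Tpx2 (adjusted p = 0.000202) and by 0.85 ± 0.16 for Nusap1 (adjusted p = 0.000367). The motors Kif4, Kif22 and Kif11 rose by 0.99, 0.65 and 0.84 on the log2 scale. Hmmr, a spindle pole protein, passed narrowly (0.53 ± 0.18, adjusted p = 0.0327) and lost its call in 6 of 17 other settings, among them without KO replicate 1 (0.49, adjusted p = 0.13), without KO replicate 2 (0.58, adjusted p = 0.0685) and without wt replicate 5 (0.33, adjusted p = 0.32). Kif15, which can act beside Kif11 in keeping the spindle bipolar, did not pass (0.23 ± 0.19, adjusted p = 0.383). Kif11 lost its call without wt replicate 4 (0.80, adjusted p = 0.0537).

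Genes of mitotic chromosome structure went both ways. The 3 subunits found in condensin I but not in condensin II rose, while of the ATPase subunits that both complexes share Smc4 fell and Smc2 did not pass. Ncapd2 (chr6:125168007-125191701) was at 188 and 171 CPM in the KO libraries, 87.6 and 121 CPM in the het libraries, and 86.1 and 92.4 CPM in the wt libraries. Ncaph (chr2:127103809-127133954) was at 108 and 120.1 CPM in the KO libraries, 56.3 and 68.8 CPM in the het libraries, and 59.1 and 48.7 CPM in the wt libraries. Both KO libraries lay above all others, and the log2 fold changes were 1.01 ± 0.14 for Ncapd2 (adjusted p = 1.37e-05) and 1.07 ± 0.16 for Ncaph (adjusted p = 2.24e-05). Ncapg (chr5:45669919-45700546) was at 112 and 101 CPM in the KO libraries, 61.3 and 88.3 CPM in the het libraries, and 77.5 and 65.8 CPM in the wt libraries (0.56 ± 0.16, adjusted p = 0.0104). Its call was lost without KO replicate 1 (0.49, adjusted p = 0.0756) and without wt replicate 5 (0.47, adjusted p = 0.132). Smc4 (chr3:69004738-69034623) was at 211 and 174 CPM in the KO libraries, 249 and 275 CPM in the het libraries, and 262 and 237 CPM in the wt libraries. Both KO libraries lay below the other 4, and the log2 fold change was -0.37 ± 0.11 (adjusted p = 0.0162). This call was lost in 6 of 17 other settings, among them scaling by library size alone (-0.01, adjusted p = 0.955), without KO replicate 2 (-0.24, adjusted p = 0.253) and without wt replicate 4 (-0.26, adjusted p = 0.277). Smc2 was at 163 and 162 CPM in KO and 211 and 163 CPM in wt and did not pass (95% interval -0.48 to 0.06).

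Top2a, the topoisomerase that disentangles chromosomes, was at 379 and 366 CPM in the KO libraries, 418 and 479.5 CPM in the het libraries, and 444 and 361 CPM in the wt libraries. Mki67, whose protein Ki-67 coats mitotic chromosomes and is widely used to mark cycling cells, was at 156 and 122 CPM in the KO libraries, 234 and 247 CPM in the het libraries, and 241 and 139 CPM in the wt libraries. Neither passed in KO against wt, with log2 fold changes of -0.11 (95% interval -0.34 to 0.11) and -0.47 (95% interval -1.22 to 0.28). The wt libraries of Mki67 differed from each other by more than the group means did. The estimate for Mki67 was -0.79 without wt replicate 5, and it passed as lower with no filter on low counts (-0.42, adjusted p = 0.0157). Over the 17 other settings the estimate for Mki67 ran from -0.79 to 0.04, so its sign was not stable, and it passed in 2 of them. In KO against het both KO libraries lay below both het libraries, and its estimate was the lowest of the 48 (-0.80 ± 0.28) but did not pass (adjusted p = 0.104). That comparison passed with no filter (-0.74, adjusted p = 5.18e-06), with only the 2 groups compared in the fit (-0.78, adjusted p = 0.000552), without wt replicate 4 (-0.75, adjusted p = 0.000665) and without wt replicate 5 (-0.78, adjusted p = 0.000346).

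All 6 cytokinesis genes rose in KO against wt, by 0.76 to 1.07 on the log2 scale, where 14.7% of all genes tested were called higher. Racgap1, the GTPase-activating subunit of centralspindlin (chr15:99620496-99651656), was at 214 and 242 CPM in the KO libraries, 125 and 138 CPM in the het libraries, and 105 and 113 CPM in the wt libraries. Kif23, the motor subunit of the same complex (chr9:61915905-61946774), was at 122 and 99.8 CPM in the KO libraries, 77.6 and 74.7 CPM in the het libraries, and 55.7 and 51.9 CPM in the wt libraries. Both genes were about as much higher in KO than in wt, with log2 fold changes of 1.07 ± 0.12 for Racgap1 (adjusted p = 8.98e-07) and 1.04 ± 0.15 for Kif23 (adjusted p = 2.41e-05). Kif20a, a midzone kinesin that brings Plk1 and the passenger complex to their place (chr18:34624613-34633277), was at 148 and 135 CPM in the KO libraries, 66.2 and 82.7 CPM in the het libraries, and 68.9 and 65.8 CPM in the wt libraries (1.06 ± 0.14, adjusted p = 8.83e-06). Its exons share 29.3% of their length with Cdc23 on the other strand, and Cdc23 also rose (0.83 ± 0.13, adjusted p = 6.26e-05), so reads of the shared stretch cannot be assigned without strand. Ect2, the exchange factor that switches on RhoA at the furrow, rose by 0.99, and Prc1, the midzone bundler, and Anln, anillin, by 0.76 and 0.77.

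**Figure D3:**
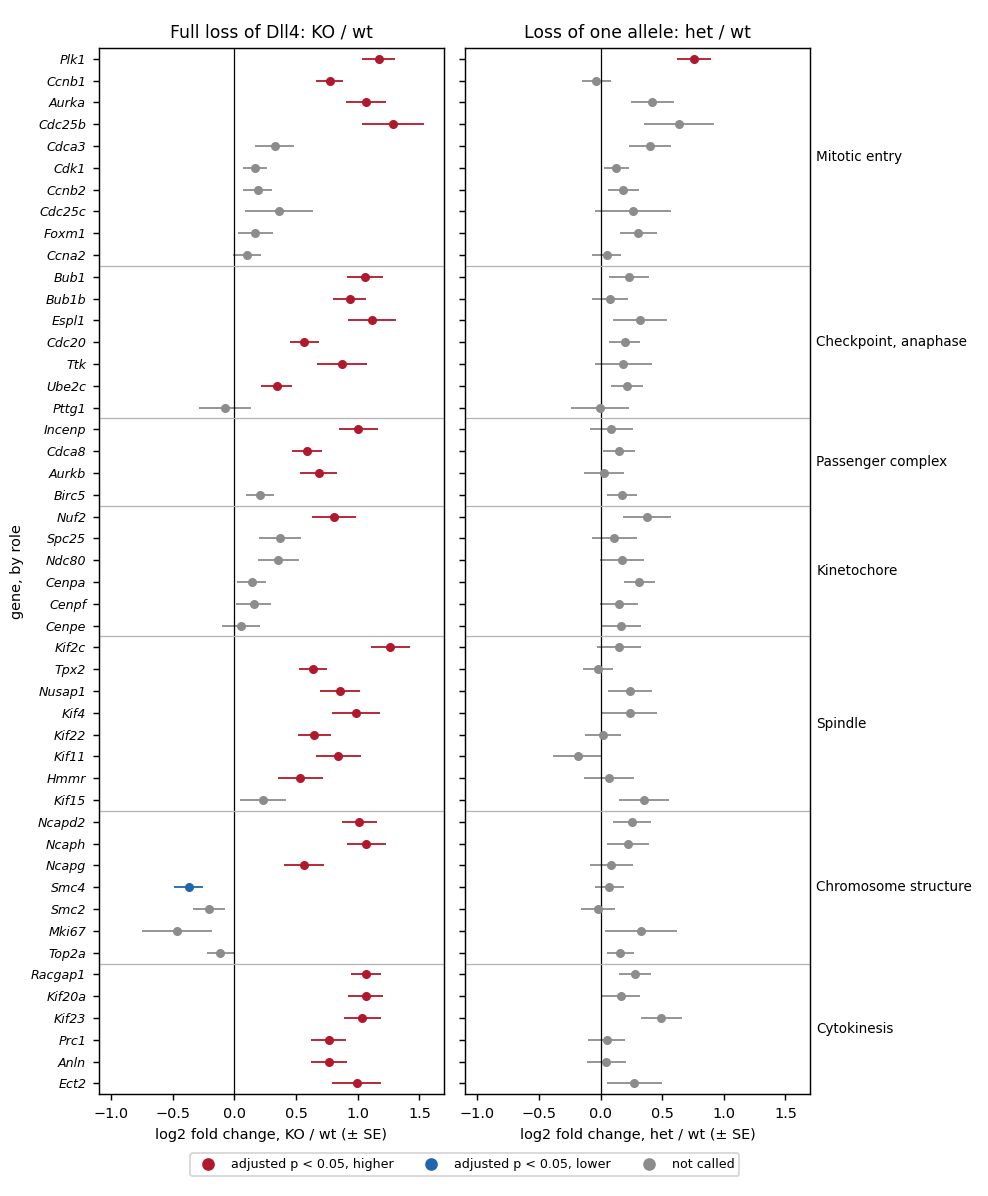
Log2 fold change (point) and SE (bar) of each of the 48 genes in KO over wt (left) and het over wt (right), by role, coloured by the edgeR call over all genes tested. On the left all 6 cytokinesis genes and 7 of 8 spindle genes lie right of 0 and are called, and Smc4 is called lower. On the right Plk1 is the 1 called gene.

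By role, the median log2 fold change in KO over wt was 1.01 for cytokinesis, 0.87 for the checkpoint and anaphase group, 0.74 for the spindle, 0.64 for the passenger complex, 0.34 for mitotic entry, 0.26 for the kinetochore and -0.11 for chromosome structure. Without wt replicate 4 the median was 0.09 for chromosome structure and 0.40 for the kinetochore, and without wt replicate 5 that of chromosome structure was -0.25. Differences between roles were not tested. With library size alone as the scaling, the median over all genes tested moved from -0.02 to 0.35, and the median of chromosome structure genes turned to 0.25. Measured from the median of all genes, it was -0.10 under both scalings, and that of the 48 was 0.66 under both. Cytokinesis genes summed to 975 and 871 CPM in the KO libraries, 503 and 593 CPM in the het libraries, and 489 and 479.7 CPM in the wt libraries, and spindle genes to 966 and 883 CPM in the KO libraries, 521 and 614 CPM in the het libraries, and 555 and 539 CPM in the wt libraries. Both KO sums lay well above the others in these 2 roles. For chromosome structure the sums overlapped, at 1317 and 1216 CPM in the KO libraries, 1312 and 1447 CPM in the het libraries, and 1379 and 1107 CPM in the wt libraries.

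Het cells, with a log2 fold change of Dll4 of -1.18 ± 0.15 against wt, showed 1 called gene among the 48. Plk1 was 1.69-fold higher in het than in wt (0.76 ± 0.14, edgeR adjusted p = 0.0193), with its libraries at the values given above and no overlap with wt. Over all genes, 0.128% were called higher and 0.0457% lower in het against wt. The call was lost with limma-voom (0.74, adjusted p = 0.0863), without het replicate 2 (0.64, adjusted p = 0.128), without wt replicate 4 (0.67, adjusted p = 0.669) and without wt replicate 5 (0.82, adjusted p = 0.102). The other 47 did not pass. Of the 48, 7 had an unadjusted p under 0.05 with edgeR, a count not set here beside that of all genes. The next largest estimates were Cdc25b (0.64 ± 0.28), Kif23 (0.49 ± 0.17) and Aurka (0.42 ± 0.18). The median log2 fold change of the 48 was 0.17, against 0.01 over all genes tested. Of the 48 estimates 43 were above 0, against 5583 of all 10952. In 18 members (37.5%) both het libraries lay above both wt libraries, against 19.2% of all genes. In none did both lie below, against 18.8% of all genes. Relative to the wt mean, the median over the 48 was 0.09 in het replicate 2 and 0.27 in het replicate 3, against 0.04 and -0.04 in wt replicates 4 and 5, so the 2 het libraries differed from each other by more than het replicate 2 did from wt replicate 4.

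In KO against het 27 of the 48 rose, 1 fell (Smc4) and 20 did not pass, where 13.9% of all genes were called higher and 17.2% lower. The KO libraries are those of the comparison with wt, so these values do not stand for a separate experiment. Kif2c had the largest estimate (1.11 ± 0.16, adjusted p = 1.32e-05), followed by Kif11 (1.03 ± 0.18, adjusted p = 0.000594). All 6 cytokinesis genes rose, by 0.55 to 0.90. Without KO replicate 1, Kif23 (0.40, adjusted p = 0.118) and Ect2 (0.53, adjusted p = 0.094) lost their calls, as did Kif23 without het replicate 3 (0.52, adjusted p = 0.0575) and Ect2 without het replicate 2 (0.52, adjusted p = 0.0757). None of the 6 kinetochore genes passed in the main edgeR fit or with DESeq2 or limma-voom. Of them 1, Nuf2, had an unadjusted p under 0.05 with edgeR (0.43 ± 0.17, adjusted p = 0.0572). Nuf2 passed in 4 of 17 other settings, among them no filter (0.49, adjusted p = 0.031). With library size alone 4 of the 6 passed. Plk1 had a smaller excess over het (0.41 ± 0.13, adjusted p = 0.0162) than over wt. Plk1 lost its call with DESeq2 (0.42, adjusted p = 0.0557), and also without KO replicate 1 (0.38), KO replicate 2 (0.45) or het replicate 3 (0.28). Smc4 was lower in KO than in het (-0.45 ± 0.11, adjusted p = 0.00502), a call lost without KO replicate 2 (-0.31, adjusted p = 0.13), without het replicate 3 (-0.36, adjusted p = 0.0717) and with library size alone (-0.07, adjusted p = 0.667). Group means were ordered KO, het, wt in 33 of the 48 (68.8%), against 21.3% of all genes tested, with no test of the order. This order requires KO above wt, and the KO over wt estimate was above 0 in 43 of the 48 but in 5382 of all 10952 genes. The 68.8% and 21.3% therefore do not show a graded change by themselves.

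Of 92 genes of mitosis outside the 48, 34 rose and 5 fell in KO against wt, where 14.7% of all genes were called higher and 17.3% lower, with a median log2 fold change of 0.35. Without wt replicate 4 these counts were 21 and 3, and with library size alone 66 and 4. Of 36 further mitotic kinases, motors and regulators, 19 rose (11 without wt replicate 4) and 2 fell. Cep55, which recruits the abscission machinery, was at 65.7 and 63.4 CPM in the KO libraries, 38.5 and 41.5 CPM in the het libraries, and 23.6 and 25.3 CPM in the wt libraries (1.41 ± 0.19, adjusted p = 6.60e-06). The microtubule-depolymerising kinesin gene Kif2a, of the same kinesin family as Kif2c, fell, with 28.7 and 23.1 CPM in the KO libraries, 70.5 and 90.0 CPM in the het libraries, and 78.8 and 76.6 CPM in the wt libraries (-1.58 ± 0.18, adjusted p = 6.84e-07). The other gene that fell, named after its values were seen, was Kif14, a midzone kinesin (-1.68 ± 0.44, adjusted p = 0.00598), whose call was lost without KO replicate 2 (adjusted p = 0.0548) and without wt replicate 4 (adjusted p = 0.0692). The largest rises of this list, chosen the same way, were those of Nek2, a centrosomal kinase (1.72 ± 0.23), and Kifc1, a kinesin that focuses spindle poles (1.63 ± 0.30). All 3 condensin II subunits rose, Ncapd3 by 1.003, Ncaph2 by 0.68 and, outside the naming rule, Ncapg2 by 0.53. The call of Ncapg2 was kept in 11 of 17 other settings. Among those that lost it were DESeq2 (0.55, adjusted p = 0.125) and limma-voom (0.53, adjusted p = 0.0583). It was also lost without KO replicate 1 (0.35) and without wt replicate 5 (0.29).

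Cohesin holds sister chromatids together until separase cuts it. Of 16 genes of cohesin and its regulators 1 rose and 2 fell, shares below those of all genes (14.7% higher, 17.3% lower). Rad21, the subunit that separase cuts, was at 81.3 and 92.1 CPM in the KO libraries, 207 and 207 CPM in the het libraries, and 209 and 209 CPM in the wt libraries. Nipbl, which loads cohesin, was at 45.2 and 37.8 CPM in the KO libraries, 103 and 110.3 CPM in the het libraries, and 128 and 82.9 CPM in the wt libraries. Both KO libraries lay far below the rest, with log2 fold changes of -1.27 ± 0.12 for Rad21 (adjusted p = 3.95e-08) and -1.36 ± 0.18 for Nipbl (adjusted p = 1.24e-05). The gene that rose was Mau2, the partner of Nipbl in the loader (0.95 ± 0.18), named after its values were seen. The number that rose was 3 without KO replicate 2, 5 without het replicate 2, 4 without het replicate 3 and 10 with library size alone, and 2 fell in each of these settings.

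In KO against wt 14.7% of all genes tested were called higher and 17.3% lower. Of 14 genes of the anaphase-promoting complex and its activator Cdh1, 6 rose and 1 fell. They were led by Cdc23 (above) and Anapc5, both structural subunits, with Anapc5 at 396 and 428 CPM in the KO libraries, 289 and 290.4 CPM in the het libraries, and 303 and 269.6 CPM in the wt libraries (0.52 ± 0.10, adjusted p = 0.000393). The gene that fell was Anapc11, the RING subunit (-0.60 ± 0.18), named after its values were seen, whose call was lost without KO replicate 1 (adjusted p = 0.115), wt replicate 4 (adjusted p = 0.156) or wt replicate 5 (adjusted p = 0.09). Without KO replicate 1 or wt replicate 4, 3 of the 14 rose. Of 23 inner centromere and Mis12 complex genes 5 rose (21.7%, against 14.7% of all genes) and none fell. With DESeq2 4 rose and with library size alone 13, and fewer than 5 rose without wt replicate 4. Nsl1 of the Mis12 complex was at 60.4 and 49.7 CPM in the KO libraries, 24.2 and 34.2 CPM in the het libraries, and 20.1 and 19.0 CPM in the wt libraries (1.49 ± 0.22, adjusted p = 2.34e-05), and Mis12 rose by 0.997.

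Of 15 tested genes of the DREAM, MuvB and NF-Y complexes, which bind the promoters of this class, 5 rose (33.3%) and 1 fell. Over all genes tested, 14.7% were called higher and 17.3% lower. With DESeq2 3 rose, and without KO replicate 1 or wt replicate 4 also fewer than 5. Mybl2, B-Myb, was at 92.1 and 88.2 CPM in the KO libraries, 42.7 and 49.6 CPM in the het libraries, and 36.0 and 39.9 CPM in the wt libraries (1.26 ± 0.17, adjusted p = 6.23e-06). Nfya, which encodes the DNA-binding subunit of NF-Y, was at 7.01 and 6.11 CPM in the KO libraries, 54.1 and 63.2 CPM in the het libraries, and 61.2 and 68.3 CPM in the wt libraries. The KO libraries were far below the other 4 (-3.28 ± 0.21, adjusted p = 2.24e-10), whereas Nfyb (-0.01 ± 0.17) and Nfyc (-0.12 ± 0.16), named after their values were seen, did not pass. Whether the level of Nfya bears on any of the 48 was not tested.

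Genes of DNA replication and of the start of S phase, set beside the 48, rose in 26 of 46 and fell in none. Over all genes tested, 14.7% were called higher and 17.3% lower. The median log2 fold change of the 46 was 0.55. With DESeq2 22 rose, and with library size alone 38. With a minimum count of 30, or with only the 2 groups compared in the fit, 1 fell. Mcm2, a subunit of the replicative helicase, was at 299 and 289 CPM in the KO libraries, 130.3 and 148 CPM in the het libraries, and 119.9 and 139 CPM in the wt libraries (1.19 ± 0.12, adjusted p = 1.11e-07), and Pold1, the catalytic subunit of DNA polymerase delta, rose by 1.48 ± 0.14. Summed over the 46, the level was 5675 and 5713 CPM in the KO libraries, 3820 and 4056 CPM in the het libraries, and 3773 and 3596 CPM in the wt libraries. Of 12 tested Cdk inhibitors and quiescence genes 1 rose, Ccng2 (0.94 ± 0.15, adjusted p = 6.65e-05), and none fell, although 1 fell without het replicate 2, het replicate 3 or wt replicate 5, with DESeq2, with a minimum count of 30, after thinning or with the length trend removed, and 2 fell with only the 2 groups compared in the fit. Btg1, an antiproliferative gene, did not pass (-0.30 ± 0.12, adjusted p = 0.0628). In het against wt none of the 165 tested genes of these other lists was called by edgeR, DESeq2 or limma-voom. With edgeR 15 of them had an unadjusted p under 0.05, a count not set here beside that of all genes.

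**Figure D4:**
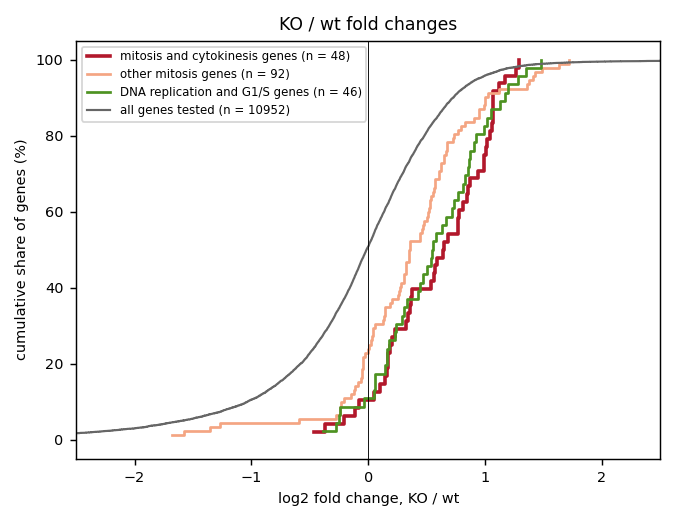
Cumulative share of genes (vertical axis, percent) below each log2 fold change of KO over wt (horizontal axis) for the 48 mitosis and cytokinesis genes, the 92 other mitosis genes, the 46 DNA replication genes and the 10952 genes tested. The curves of the 48 and of the replication genes run close together and right of that of all genes, with medians of 0.64 and 0.55 against -0.02.

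Some sums of markers of other cell types also differed between the groups. In KO against wt 14.7% of all genes tested were called higher and 17.3% lower. Cardiomyocyte markers, 14 in all with Ryr2 at 0 in KO, summed to 60.5 and 52.3 CPM in the KO libraries, 245 and 193 CPM in the het libraries, and 126 and 113 CPM in the wt libraries. Of 9 tested, 4 were lower and none higher in KO against wt. The 15 mural and fibroblast markers summed to 262 and 143 CPM in the KO libraries, 349 and 455 CPM in the het libraries, and 201 and 279 CPM in the wt libraries, with Myh11 at 0 in KO, and 1 of 10 tested was higher and 3 were lower. The 9 macrophage markers summed to 31.3 and 8.82 CPM in the KO libraries, 243 and 64.6 CPM in the het libraries, and 24.0 and 83.5 CPM in the wt libraries, and the 8 erythroid markers to 234 and 182 CPM in the KO libraries, 118 and 378 CPM in the het libraries, and 416 and 145 CPM in the wt libraries. Of 6 macrophage markers tested 1 was lower in KO than in wt (16.7%, near the share of all genes), and of 5 erythroid markers none was called. The 5 epicardial markers summed to 74.0 and 76.7 CPM in the KO libraries, 103 and 120.4 CPM in the het libraries, and 108 and 105 CPM in the wt libraries, nearly all of it Wt1, which was lower in KO (-0.49 ± 0.15). Cardiomyocyte and fibroblast sums were highest in het. The part of these differences in the levels of the 48 was not tested.

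Of the 48 genes, 40 were found in the promoter table, with 42 windows from 250 bases before to 50 bases after a start, since Ect2 and Prc1 each had 2 that overlapped. CCAAT, on either strand, was in 33 windows (78.6%), against 37.4% of all 32851 windows in the table. A CHR word, TTTGAA or TTTAAA on either strand, was in 36 windows (85.7%), against 27.6%. Both were in 31 windows (73.8%), against 10.7% of all windows and 7.69% of the windows of genes tested. The CHR words lay closer to the start than the boxes did. The median position of their first base was -17 from the start, against -69.5 for CCAAT, and 2 pairs of words overlapped. In 32 windows (76.2%) a CHR word lay within 50 bases of the start, against 8.28% of all windows. Both words were in 21 of 28 windows of members that rose in KO (75%) and in 10 of 14 windows of the others (71.4%), Cdk1 and Top2a among these others. No word was found in the windows of Nuf2, Nusap1, Ncaph and Pttg1, of which the first 3 rose.

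**Figure D5:**
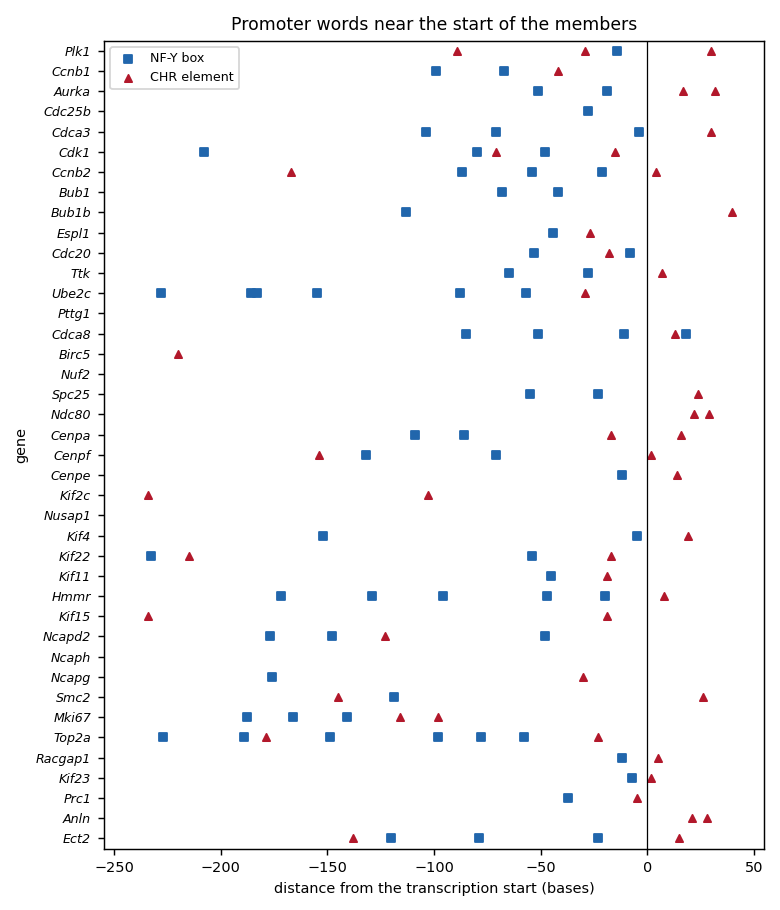
Position of each CCAAT box (squares) and CHR word (triangles) from 250 bases before to 50 bases after the transcription start (horizontal axis, bases) in 40 of the 48 genes (rows, by role). Triangles gather within 50 bases of the start and squares mostly before them; rows with no symbol are genes in whose window no word was found.

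Members differed in length and base composition. The 30 that rose had a median exon GC content of 48.5% (range 36.5% to 56.1%), and the other 18 a median of 46.5% (range 39.4% to 54.3%). Across the 48 genes, which are not independent replicates, GC content and the log2 fold change of KO over wt had a Pearson's r of 0.285 and a Spearman's rho of 0.302, and across all genes tested with a value -0.0473 and -0.0257. Exon length had -0.113 and -0.151 across the 48. Per kilobase of exon the most abundant member in KO was Cdc20, at 107 CPM per kilobase in KO and 72.6 in wt, and the least abundant Cdc25c, at 3.79 in KO and 2.96 in wt. Exons of other genes overlap those of several members. Besides Kif20a, the largest shares of exon length were 22.8% for Ube2c (with Tnnc2), 15.1% for Kif4 (with Pdzd11), 13.4% for Ncapg (with Lcorl), 12.7% for Cdc25c (with Gm3550), 12.5% for Ccna2 (with Exosc9) and 11.1% for Prc1 (with Rccd1). How many of their counts come from the shared stretches was not tested.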

How the data were processed

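Expected counts per gene, which RSEM estimates from reads and which need not be whole, were deposited as 1 table for 6 libraries. Per the submitters' processing notes, CASAVA, cutadapt and RSEM were used with GRCm38; no version is given. SMART-Seq v4 amplification and Nextera XT, per the labels' protocols, do not mark strand, and the labels disagree on single or paired reads. RSEM divides reads shared by several genes. Symbols and positions came from GENCODE M21 (97.9% of 41214 identifiers matched), promoters from RefSeq GRCm38.p6.

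Counts were rounded (4.29% to 5.87% of values were not whole within 1e-09) and fitted in R 4.3.3 with edgeR 4.0.16: TMM, filterByExpr (minimum count 10), a robust fit of the 6 libraries with 3 residual degrees of freedom, two-sided quasi-likelihood F tests, and Benjamini-Hochberg adjustment over 10952 genes, called under 0.05. Adjusted p-values are from this test unless another tool is named. SE are on the log2 scale, and 95% intervals are unadjusted. Libraries of a group differed by 3.08 to 5.43 times the sampling variance, so none was 1 library deposited again, which does not show that they came from separate animals. KO differed from het and wt libraries by 113 to 152 times, het from wt by 3.27 to 8.29 times. These values pool all genes, Lars2 among them, so they are not a distance shared evenly by genes. The part of Lars2 in the KO values was not tested. Totals of 1537908 to 6501798 counts set the precision. The steps were run on simulated counts without a shift in makeup like that of Lars2, so that run cannot show how they act under such a shift. DESeq2 1.42.0, limma-voom (limma 3.58.1), other scalings and filters, thinning and leaving out libraries were alternatives. Trends on GC content and length were added after seeing the data.

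The members, roles and other lists were chosen with earlier results of these data known. Genes given in full are Dll4, the 3 members of each role with the smallest p in KO against wt, any called in het or called lower in KO, and 2 genes of each other list. Base windows were searched as letters only.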

Additional observations from a re-analysis of the deposited data

How the results depend on the processing

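Of the 31 members called in KO against wt, 25 kept their call under all 17 alternatives, and the others were Ttk, Kif11, Ube2c, Hmmr, Ncapg and Smc4. Of the 28 called in KO against het, 18 kept theirs. Scaling by library size alone moved the median log2 fold change of the members to 1.005 in KO against wt and 0.85 in KO against het, with that of all genes at 0.35 and 0.36. It called 43 members higher and none lower in KO against wt, and over all genes 3878 higher and 1034 lower, against 1610 and 1899 with TMM. In het against wt, limma-voom called 0 members and 11 genes, no filter 150 genes, and removal of the length trend 30 genes, against 19. Leaving out each library in turn gave 28 to 31 called members, medians of 0.58 to 0.66 and 2043 to 3815 called genes in KO against wt, the fewest without wt replicate 4. In het against wt it gave 0 to 1 members, medians of 0.09 to 0.26 and 2 to 76 genes. In KO against het it gave 19 to 30 members, medians of 0.41 to 0.60 and 2435 to 3206 genes. Of 21 named genes of other lists called in KO against wt, 18 kept their call under all 17. A library left alone in its group was assumed to vary like the others. Searching from 150 bases before the start found both promoter words in 30 of 42 windows, against 31. The cause of these changes was not tested. No member called in a comparison changed sign there under any of the 17, while estimates that did not pass took both signs for 5 members when KO was set against wt, for 23 when het was, and for 14 when KO was set against het. No paired analysis was possible because the groups share at most 1 replicate number.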
